A study of Mus musculus with 6 samples.

Results

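Transcripts of chemokine ligands and chemokine receptors were examined in the corneal epithelium of mice in which *Ptch1*, the inhibitory receptor of the Hedgehog pathway, had been ablated in the cells beneath the epithelium. The members were all genes of the expression table with a symbol of the Ccl, Cxcl, Cx3cl, Xcl, Ccr, Cxcr, Cx3cr or Ackr series, together with *Ppbp* and *Pf4*. The table held 47 of them among 17784 genes, with 29 ligands and 18 receptors. The expression table gave no values for *Pf4*, so it was not analysed. The 6 samples were bulk RNA-seq libraries of corneal epithelial cells that had been separated from the cornea with EDTA. In the 3 Ptch1-ablated samples the mice carried *Prrx1-CreERT* and floxed *Ptch1*, and the 3 control samples, labelled WT, came from control mice whose genotype the sample labels do not give further. By the labels, mice of both groups received 3 doses of tamoxifen at 10 weeks of age, and a period of 2 months is given without a stated start or end. *Prrx1-CreERT* is a tamoxifen-inducible recombinase active in keratocytes, and also in corneal endothelium, so it was not directed at the epithelial cells that were sequenced. Both male and female mice were used in the study, and whether the cells of several animals were pooled for a sample was not stated in the sources used here, so the p-values measure only the spread between these samples.

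Chemokines are small secreted or membrane-tethered proteins that guide leukocytes by binding G protein-coupled receptors. CXC ligands with an ELR motif attract neutrophils through *Cxcr2*, many CC ligands attract monocytes, dendritic cells or lymphocytes, and atypical receptors bind chemokines and remove them without G protein signaling. The corneal epithelium is normally almost free of neutrophils, and epithelial cells can release chemokines after injury or infection.

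Depth was similar across the libraries. The total of the expected counts, the read numbers that RSEM assigns to each gene, was 20550100, 20415942 and 20464519 for the control libraries (replicates 1, 2 and 3). For the Ptch1-ablated libraries it was 20625813, 20352869 and 20296741. Normalized counts are these counts after TMM scaling for library size, and TPM values are in addition scaled for gene length. *Ptch1* itself (gene 19206) had 517, 659 and 682 normalized counts in the control samples and 390, 445 and 471 in the Ptch1-ablated samples (log2 fold change -0.51, standard error [SE] 0.13, adjusted p = 0.0401), which in epithelial cells does not measure the deletion in keratocytes. *Krt12*, the corneal epithelial keratin, was at 44025 to 48396 TPM in control samples and 37107 to 49487 TPM in Ptch1-ablated samples. Ptch1-ablated replicate 1 stood apart from the other samples of its group. Divided by its degrees of freedom, the chi-square over all counts was 35.7 and 37.8 between it and replicates 2 and 3, 12.0 between replicates 2 and 3, and 10.1 to 17.6 between control samples, so all pairs differed by more than sampling noise. Control replicate 3 stood out for the collagen gene *Col1a2*, with 26.0 TPM against 0.08 to 2.62 TPM in the other 5 samples. This made up most of its sum of 27.2 TPM over 5 stromal keratocyte markers, which was 1.02 to 3.25 TPM in the other samples. The other markers of that list were low, with *Kera* at 1 count or fewer in every sample, and *Dcn* had 5, 1 and 6 counts in the control samples and 15, 9 and 23 in the Ptch1-ablated samples, higher in all of the latter.

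Most chemokine genes were at or near the limit of detection in these epithelial samples. Only 19 of the 47 members reached 10 counts in any sample, with 15 of 29 ligands and 4 of 18 receptors, and 28 stayed below 10 counts in all 6 samples. The 4 members with at least 100 counts in every sample were the ligands *Cx3cl1*, *Cxcl16* and *Cxcl14* and the atypical receptor *Ackr3*. In TPM, *Cx3cl1* was the highest ligand in every control sample, with 64.5 to 70.2 TPM, and *Ackr3* was the highest receptor, with 33.3 to 44.9 TPM. A filter on low counts left 13 members for testing, and *Ccl6*, *Cxcl2*, *Cxcl3*, *Cxcl5*, *Cxcl12* and *Cxcr6* were detected but not tested. The 28 members below 10 counts included 8 of 9 CC receptors and the interferon-induced ligands *Cxcl9* and *Cxcl10*, which attract activated T cells. *Cxcl10* had 2, 0 and 1 counts in control replicates 1, 2 and 3 and 2, 0 and 0 in Ptch1-ablated replicates 1, 2 and 3. *Cxcl9* had 0, 1.02 and 0 counts in the control samples and 0, 1.02 and 1.01 in the Ptch1-ablated samples.

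**Figure D1:**
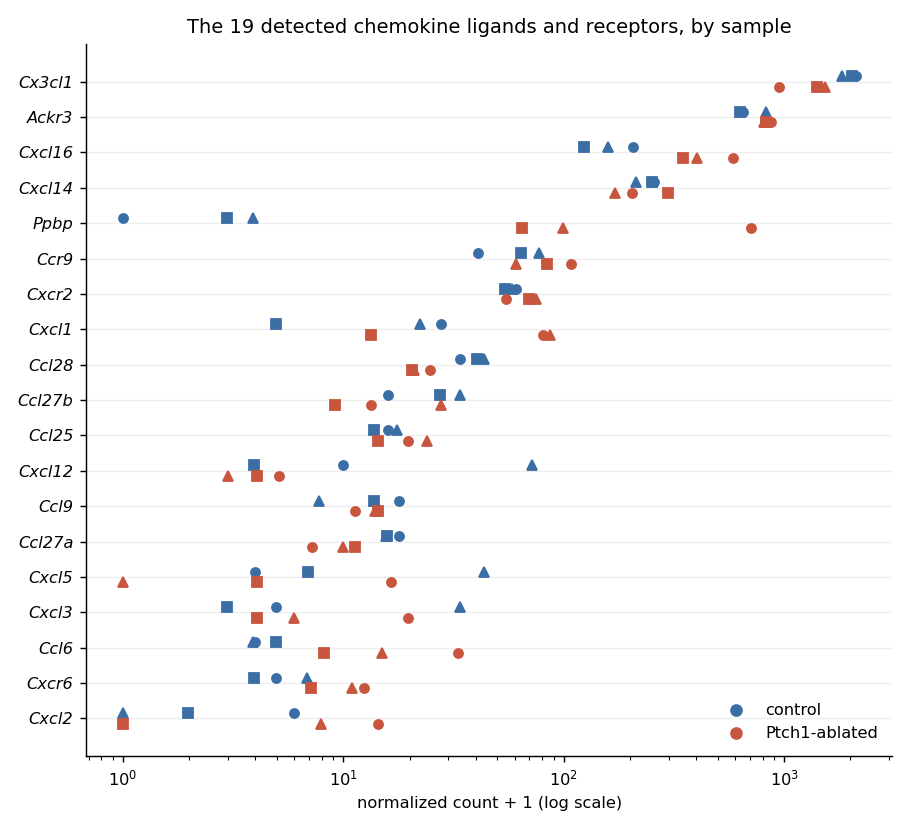
Normalized counts plus 1 (horizontal axis, log scale) of the 19 detected chemokine ligands and receptors in each of the 6 samples, with control samples in blue, Ptch1-ablated samples in red, and circles, squares and triangles for replicates 1, 2 and 3. *Ppbp* is the member whose groups lie farthest apart, and *Cxcl12*, *Cxcl5* and *Cxcl3* are highest in control replicate 3. For *Cxcl5* and *Cxcl3* the next highest sample is Ptch1-ablated replicate 1.

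Loss of *Ptch1* in the cells beneath the epithelium was accompanied by higher transcript levels of 2 chemokine ligands, *Ppbp* and *Cxcl16*. To be called, a gene needed a difference of 2-fold or more and an adjusted p (Benjamini-Hochberg, over all 12999 tested genes) no higher than 0.05 in edgeR's quasi-likelihood test, which gave the adjusted p values below unless another method is named. Of the 13 tested members, 2 were called higher and 0 lower in Ptch1-ablated samples, while 2.34% of all tested genes were called higher and 0.892% lower. *Ppbp* passed the filter on low counts through its Ptch1-ablated samples alone. With at least 10 counts required in every sample, 1 member, *Cxcl16*, was called higher. *Cx3cl1* was the only other tested member with an adjusted p of at most 0.05. That made 3 of 13, against 14.0% of all tested genes. All Ptch1-ablated samples lay above all control samples for *Ppbp* and *Cxcl16*, 2 of 13, where the share among all tested genes was 19.7%. In normalized counts they lay below all control samples for *Cx3cl1*, *Ccl27a* and *Ccl28*, 3 of 13, where the share among all tested genes was 20.3%, and the groups overlapped for the other 8. The log2 fold change was above 0 for 8 and below 0 for 5 of the 13, with a median of 0.21, and the median of all tested genes was -0.01. With 3 samples a group, an exact permutation test of a single gene has a smallest possible p of 0.10, and the adjusted p values of the fit across genes are given instead. In bulk samples, fewer cells of a type and less RNA per cell cannot be told apart.

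**Figure D2:**
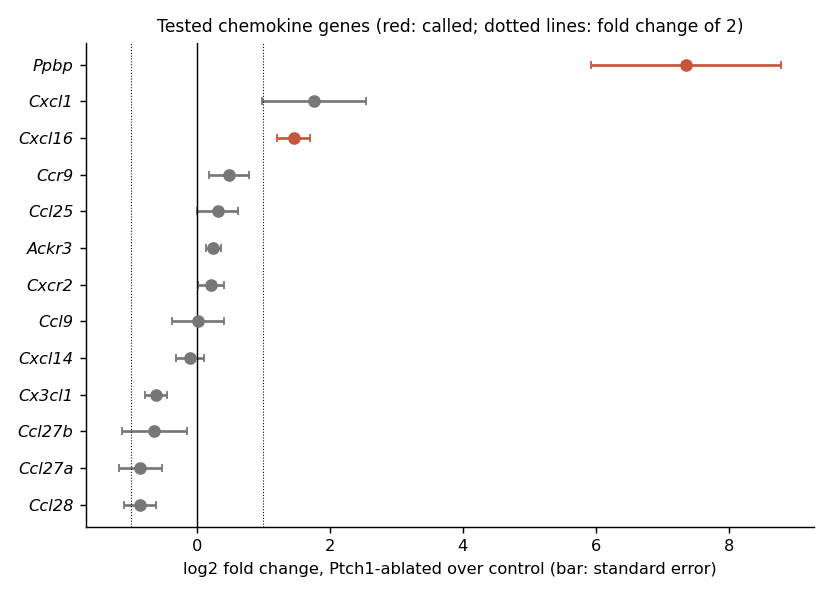
Log2 fold change of Ptch1-ablated over control samples (horizontal axis) for the 13 tested chemokine genes, with bars for the standard error, the called genes in red and dotted lines at a fold change of 2. *Ppbp* (7.36) and *Cxcl16* (1.45) are called, and the bar of *Ppbp* is the widest.

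*Ppbp* (gene 57349) encodes pro-platelet basic protein, the precursor of the neutrophil attractant CXCL7, and is best known from megakaryocytes and platelets. It had 0, 2 and 3 counts in control replicates 1, 2 and 3 and 682, 62 and 99 counts in Ptch1-ablated replicates 1, 2 and 3. It was thus at or under the floor of 3 counts in every control sample and clearly detected in every Ptch1-ablated sample, with the highest Ptch1-ablated value 11.1 times the lowest. The summed, depth-scaled counts gave a ratio of 174.8, with an exact 95% interval of 74.6 to 540 that covers counting error only. Without Ptch1-ablated replicate 1 the ratio was 49.7 (20.9 to 155). The fit gave a log2 fold change of 7.36 with a standard error of 1.43 (adjusted p = 0.0212), a value that depends on how counts near 0 are handled. *Ppbp* passed the count filter through the Ptch1-ablated samples alone, so being tested already rested on the group where it was high. The adjusted p was 0.0988 with limma-voom and 0.0647 to 0.0988 when any of the control samples was left out. In TPM, *Ppbp* rose from at most 0.31 in the control samples to 67.0, 6.35 and 10.3 in Ptch1-ablated replicates 1, 2 and 3.

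The *Ppbp* gene lies on chromosome 5 in the cluster of ELR CXC ligands, in the order *Rassf6*, *Cxcl5*, *Ppbp*, *Pf4*, *Cxcl3*, *Cxcl15*, *Cxcl1*, *Cxcl2* and *Mthfd2l*. The genes at the cluster's edges were not called. The log2 fold change was -0.38 for *Rassf6* (adjusted p = 0.0735) and -0.32 for *Mthfd2l* (adjusted p = 0.0636). Of the ligands of the cluster, *Ppbp* and *Cxcl1* passed the count filter, and the 250 bases before their starts are shown to place the letters of 3 regulatory motifs. The sequences are from RefSeq (GRCm38.p6, plus strand, chr5:90768268-90768517 for *Ppbp* and chr5:90890995-90891244 for *Cxcl1*), while the counts were made on mm9. The *Cxcl1* window was added after its values were seen. Capitals mark motif matches.
Ppbp: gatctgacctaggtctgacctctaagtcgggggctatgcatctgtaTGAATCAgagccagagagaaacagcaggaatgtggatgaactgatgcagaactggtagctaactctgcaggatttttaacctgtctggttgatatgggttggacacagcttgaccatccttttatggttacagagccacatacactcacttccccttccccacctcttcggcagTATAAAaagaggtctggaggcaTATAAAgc
Cxcl1: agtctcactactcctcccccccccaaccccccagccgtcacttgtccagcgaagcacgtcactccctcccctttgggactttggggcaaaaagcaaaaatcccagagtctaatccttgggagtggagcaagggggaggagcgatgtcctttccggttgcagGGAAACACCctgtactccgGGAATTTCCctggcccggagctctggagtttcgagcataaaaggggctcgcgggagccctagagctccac
The *Ppbp* window holds the letters TGAATCA, starting 204 bases before the start, and the letters TATAAA at 30 and at 8 bases before it. TGAATCA matches TGANTCA, a loose AP-1 pattern in which the middle base N can be any base. The *Cxcl1* window holds the NF-kB core (GGNNTTTCC) as GGAATTTCC at 70 bases before the start and as a match on the other strand, GGAAACACC as printed, at 89. With both strands searched in windows of 250 bases, 4.93% of 32851 RefSeq windows hold the NF-kB core, 6.75% the loose AP-1 pattern and 12.4% TATAAA. Of the 17 detected members with a window, 4 hold the NF-kB core (*Ccl9*, *Cxcl1*, *Cxcl2* and *Cxcl3*), 4 the loose AP-1 pattern (*Ccl27a*, *Ccl27b*, *Ccl9* and *Ppbp*) and 7 TATAAA. A match is a description of the letters and not evidence of a bound factor.

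*Cxcl1*, a ligand of *Cxcr2* that many stressed epithelia release, had 27, 4 and 22 counts in control replicates 1, 2 and 3 and 77, 12 and 86 counts in Ptch1-ablated replicates 1, 2 and 3. Replicate 2 was the lowest sample of either group, and the groups overlapped. The log2 fold change was 1.76 (SE 0.78, adjusted p = 0.158). *Cxcl2*, a close relative of *Cxcl1*, was at most at 12.8 counts and was at 0 in 1 sample of each group. *Cxcl3* had 3.89, 1.52 and 34 counts in control replicates 1, 2 and 3 and 18.2, 3 and 5 counts in Ptch1-ablated replicates 1, 2 and 3. *Cxcl5*, an epithelial neutrophil attractant, had 2.99, 5.86 and 44.0 counts in the control samples and 15.0, 3.01 and 0 counts in the Ptch1-ablated samples. For both genes the highest sample was control replicate 3. *Cxcl2* and *Cxcl3* are close in sequence and their reads were divided between genes by RSEM, so their values are uncertain. *Cxcl15* stayed below 10 counts. Of the 6 ELR ligands, 1 was called, 1 was tested and not called, and 4 were too low for the test.

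*Cxcl16* (gene 66102) encodes a transmembrane chemokine that is shed from the cell surface and attracts T and NKT cells through *Cxcr6*. It had 205, 123 and 158 normalized counts in control replicates 1, 2 and 3 and 584, 347 and 400 in Ptch1-ablated replicates 1, 2 and 3. Every Ptch1-ablated sample was above every control sample, and the increase did not rest on replicate 1. The means were 161.9 ± 41.0 (SD, n = 3) in control samples and 443.7 ± 124.4 (SD, n = 3) in Ptch1-ablated samples, a fold change of 2.74. The log2 fold change was 1.45 (SE 0.24, adjusted p = 0.0148), and without Ptch1-ablated replicate 1 it was 1.21 (adjusted p = 0.0153). Without control replicate 2 the adjusted p was 0.0724. *Cxcl16* lies on chromosome 11 and overlaps *Zmynd15* on the other strand. *Zmynd15* had 6 to 9.23 counts in control samples and 11.0 to 18.0 in Ptch1-ablated samples (log2 fold change 0.84, adjusted p = 0.159), and whether reads were assigned by strand was not given in the sources used here. The next gene on the other side, *Med11*, had a log2 fold change of -0.26 (adjusted p = 0.230). *Cxcr6*, the receptor of *Cxcl16*, had 4, 3 and 6 counts in the control samples and 11, 6 and 10 in the Ptch1-ablated samples, and it was too low for the test.

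*Cxcl14*, a chemokine made constitutively by many epithelia, was the other abundant CXC ligand. It had 256, 252 and 213 normalized counts in the control samples and 204, 298 and 169 in the Ptch1-ablated samples. The Ptch1-ablated values spanned the control values, and the log2 fold change was -0.10 (SE 0.21, adjusted p = 0.758). *Cxcl12*, a ligand of *Cxcr4* and *Ackr3* that is typical of stromal cells, had 9, 3 and 73 counts in the control samples and 4, 3 and 2 in the Ptch1-ablated samples. Its high value was again that of control replicate 3, and a fit without the count filter gave a log2 fold change of -3.13 with an adjusted p of 0.119. In the same sample *Col1a2* had 1276 counts, against 4 to 128 in the other samples, and *Col1a1* had 37, against 2 to 12.9, while the keratocyte marker *Kera* had 1 count and *Dcn* was not at its highest. The part of stromal RNA in the values of *Cxcl12*, *Cxcl3* and *Cxcl5* was not tested. *Cxcl17* was at most at 7 counts.

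*Cx3cl1* (gene 20312) encodes fractalkine, a transmembrane chemokine that holds and attracts cells bearing *Cx3cr1*, such as resident macrophages. It had 2114, 2032 and 1838 normalized counts in control replicates 1, 2 and 3 and 949, 1415 and 1539 in Ptch1-ablated replicates 1, 2 and 3. All Ptch1-ablated samples were below all control samples, with replicate 1 the lowest. The means were 1995 ± 141 (SD, n = 3) and 1301 ± 311 (SD, n = 3), so the control mean was 1.53 times the Ptch1-ablated mean. The log2 fold change was -0.62 (SE 0.17, adjusted p = 0.0495), which passed the adjusted p but not the fold change required for a call. The adjusted p was above 0.05 under 9 of 15 alternatives, for example 0.0510 with RLE size factors, while without Ptch1-ablated replicate 1 the log2 fold change was -0.43 (adjusted p = 0.0246). The neighbours *Ccl22* and *Ccl17* on chromosome 8 had at most 4 counts in any sample. *Cx3cr1*, the receptor, had 4.22, 8.24 and 7.79 counts in the control samples and 6.62, 3.02 and 3.85 in the Ptch1-ablated samples, below the limit of 10 counts in all of them.

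**Figure D3:**
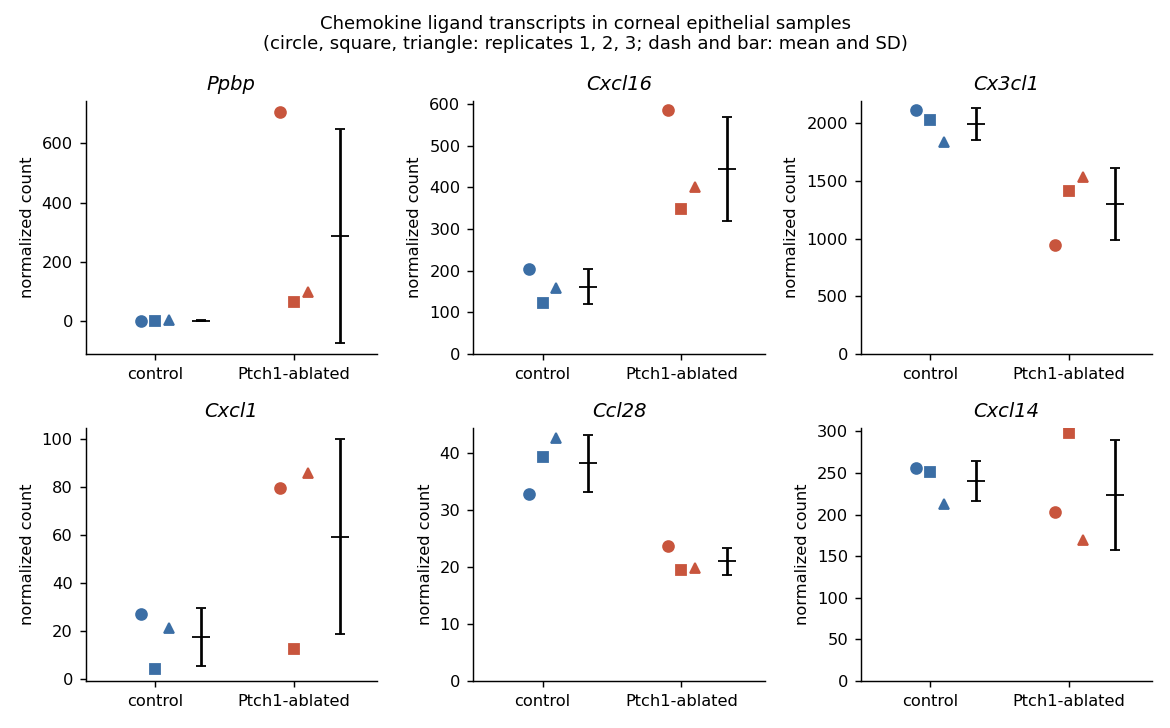
Normalized counts (vertical axis, linear) of *Ppbp*, *Cxcl16*, *Cx3cl1*, *Cxcl1*, *Ccl28* and *Cxcl14* in each sample, with circles, squares and triangles for replicates 1, 2 and 3 and a dash and bar for the mean and SD of 3 samples. Ptch1-ablated replicate 1 is the highest sample for *Ppbp* (705) and *Cxcl16* (584) and the lowest for *Cx3cl1* (949), and the groups overlap for *Cxcl1* and *Cxcl14*.

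The opposite differences of *Cx3cl1* on the one side and *Cxcl16* and *Ppbp* on the other gave the ligand transcripts a different composition in the Ptch1-ablated epithelium. Summed over the 29 ligands, the level was 112, 105 and 114 TPM in control replicates 1, 2 and 3 and 169, 105 and 127 TPM in Ptch1-ablated replicates 1, 2 and 3. The sums overlapped between groups. *Cx3cl1* made up 62.6%, 66.7% and 56.4% of the ligand sum in the control samples and 17.8%, 44.9% and 42.4% in the Ptch1-ablated samples. *Cxcl16* made up 13.0%, 8.63% and 10.4% in the control samples and 23.5%, 23.6% and 23.6% in the Ptch1-ablated samples. *Ppbp* made up at most 0.271% in the control samples and 39.7%, 6.04% and 8.13% in the Ptch1-ablated samples, and in Ptch1-ablated replicate 1 it was the highest ligand. These shares restate the values of the single genes and were not tested.

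**Figure D4:**
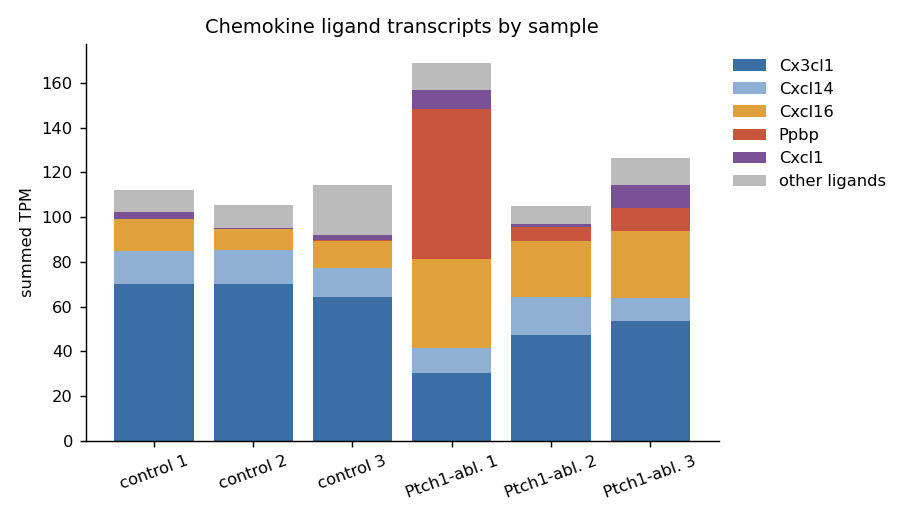
Summed TPM of the chemokine ligands (vertical axis) in each of the 6 samples, with the parts of the bars for *Cx3cl1*, *Cxcl14*, *Cxcl16*, *Ppbp*, *Cxcl1* and all other ligands. The share of *Cx3cl1* is 56.4% to 66.7% in control samples and 17.8% to 44.9% in Ptch1-ablated samples.

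CC ligands were low throughout. The homeostatic CC ligands *Ccl27a*, *Ccl27b*, *Ccl28* and *Ccl25* passed the count filter, and 0 of the 4 were called. *Ccl28*, a mucosal ligand of *Ccr10* and *Ccr3*, had 32.8, 39.3 and 42.7 normalized counts in the control samples and 23.8, 19.5 and 19.9 in the Ptch1-ablated samples. The groups did not overlap, and the log2 fold change was -0.86 (SE 0.24, adjusted p = 0.0515). *Ccl28* was outside the rule for genes named with values and was singled out after its values were seen. *Ccl27a*, a ligand of *Ccr10* made by keratinocytes of the skin, had 16.9, 14.7 and 14.6 normalized counts in the control samples and 6.20, 10.3 and 8.96 in the Ptch1-ablated samples. These groups did not overlap in normalized counts either (log2 fold change -0.85, SE 0.32, adjusted p = 0.110). In TPM they did, with 2.80 in Ptch1-ablated replicate 2 and 2.76 in control replicate 2. The values of *Ccl27a* are uncertain, since it shares reads with its near-identical copy *Ccl27b* (log2 fold change -0.64, adjusted p = 0.394) and overlaps *Il11ra1* on the other strand. *Ccl25*, the ligand of *Ccr9* known from thymus and small intestine, had 14.9, 12.8 and 16.5 normalized counts in the control samples and 18.6, 13.3 and 22.9 in the Ptch1-ablated samples. The groups overlapped (log2 fold change 0.31, SE 0.31, adjusted p = 0.520), and the gene overlaps *Elavl1* on the other strand. *Ccl17* and *Ccl22*, which attract cells bearing *Ccr4*, were the remaining homeostatic ligands.

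Of the 10 inflammatory CC ligands in the table, 8 stayed below 10 counts. They included *Ccl2*, a main attractant of monocytes, with 1, 1 and 7 counts in the control samples and 1, 2 and 5 in the Ptch1-ablated samples, and *Ccl20*, which attracts cells bearing *Ccr6*, with at most 1 count. *Ccl5*, which attracts T cells and monocytes, had 1, 5 and 8 counts in the control samples and 0, 0 and 1 in the Ptch1-ablated samples, all below 10 counts, and it was not tested. A fit without the count filter gave a log2 fold change of -3.35 with an adjusted p of 0.117. *Ccl9*, a ligand of *Ccr1*, had 16.9, 12.8 and 6.79 normalized counts in the control samples and 10.3, 13.3 and 12.9 in the Ptch1-ablated samples. Its groups overlapped (log2 fold change 0.01, SE 0.39, adjusted p = 0.991). *Ccl6*, another ligand of *Ccr1* that myeloid cells make, was also singled out after its values were seen. It had 3, 4 and 3 counts in the control samples and 31, 7 and 14 in the Ptch1-ablated samples. The groups did not overlap, but the gene did not pass the count filter, and a fit without the filter gave a log2 fold change of 2.38 with an adjusted p of 0.0551. When Ptch1-ablated replicate 2, its lowest Ptch1-ablated sample, was left out, *Ccl6* passed the filter and was called higher. It passed through the remaining Ptch1-ablated samples alone, after their lowest value was removed, so nothing is drawn from that call.

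Receptor transcripts were dominated by *Ackr3*, an atypical receptor that binds CXCL12 and removes it from the surroundings of the cell. *Ackr3* made up 87.0% to 88.6% of the receptors' summed TPM in each sample. It had 648, 631 and 828 normalized counts in the control samples and 868, 828 and 805 in the Ptch1-ablated samples. The groups overlapped, and the log2 fold change was 0.25 (SE 0.11, adjusted p = 0.171). *Ackr4*, which removes CCL19, CCL21 and CCL25, had 2.04, 2.01 and 5.01 counts in the control samples and 2.01, 1 and 3.02 in the Ptch1-ablated samples. *Ackr2*, which removes inflammatory CC ligands, was at most at 1 count.

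Of the signaling receptors, *Cxcr2* and *Ccr9* passed the count filter. *Cxcr2*, the receptor of the ELR ligands including the product of *Ppbp*, had 59.6, 53.1 and 57.3 normalized counts in the control samples and 53.8, 68.8 and 73.7 in the Ptch1-ablated samples. The groups overlapped, and the log2 fold change was 0.21 (SE 0.19, adjusted p = 0.490). The expected counts of *Cxcr2* were not whole in any sample, since RSEM divided reads between genes, so its level is uncertain. *Ccr9* had 39.7, 62.9 and 76.7 normalized counts in the control samples and 107.5, 83.1 and 59.7 in the Ptch1-ablated samples. These also overlapped (log2 fold change 0.48, SE 0.31, adjusted p = 0.311), and *Ccr9* shares its position with *Lztfl1*, *Slc6a20a* and other annotated genes, so its counts are uncertain. *Ccr10*, the receptor of the products of *Ccl27a* and *Ccl28*, had 6, 7.44 and 8.48 counts in the control samples and 7, 6 and 5 in the Ptch1-ablated samples. *Cxcr4*, the receptor of CXCL12 on most leukocytes, had 0 counts in every control sample and 2 in every Ptch1-ablated sample. Both are under the floor of 3 counts, and no fold change is given. The related receptors outside the naming series were 0 called of 3 tested, with log2 fold changes of -0.28 for *Ccrl2*, which presents chemerin, 0.58 for the chemerin receptor *Cmklr1* and 0.34 for *Xcr1*, the receptor of XCL1.

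Among genes known to induce chemokine genes or to control them through NF-kB, 7 of 37 tested were called higher and 0 lower in Ptch1-ablated samples, and 30 were not called, where 2.34% of all tested genes were called higher and 0.892% lower. The median log2 fold change of this list was 0.21, against -0.01 over all tested genes. The list was chosen with earlier results of these data known, so these values are not a test of it. The called genes were 4 cytokines of the interleukin-1 family and 3 negative or modulatory regulators. *Il1f6*, *Il1f8* and *Il1f9*, which encode interleukin-36 alpha, beta and gamma, had log2 fold changes of 2.82 (SE 0.67, adjusted p = 0.0349), 2.17 (0.35, adjusted p = 0.0139) and 1.79 (0.45, adjusted p = 0.0398). All 3 were highest in Ptch1-ablated replicate 1, the sample that stood apart. *Il1f6* had 15.6, 3.68 and 4.51 TPM in Ptch1-ablated replicates 1, 2 and 3 and at most 1.52 TPM in control samples. *Il1f8* had 44.4, 21.6 and 27.6 TPM against at most 9.95, and *Il1f9* had 118, 39.5 and 52.2 TPM against at most 29.8. *Il1a*, the alarmin of epithelial cells, had 29.7, 30.7 and 30.3 TPM in the control samples and 84.7, 49.9 and 57.8 TPM in the Ptch1-ablated samples (log2 fold change 1.13, adjusted p = 0.0182). *Tnfaip3*, which encodes the NF-kB inhibitor A20, had a log2 fold change of 1.56 (adjusted p = 0.0315). *Bcl3*, a nuclear IkB protein, had 1.70 (adjusted p = 0.00263). *Zfp36*, which promotes the decay of cytokine and chemokine mRNAs, had 1.47 (adjusted p = 0.00797). *Tnfrsf1a*, a TNF receptor and with *Zfp36* the most abundant gene of the list, had a log2 fold change of 0.44 (adjusted p = 0.0256). *Tnf* was at 1.77 to 3.75 TPM in control samples and 2.66 to 3.23 TPM in Ptch1-ablated samples (log2 fold change 0.21, adjusted p = 0.687).

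Of 30 tested genes that act below chemokine receptors, 1 was called higher and 0 lower, a share near the 2.34% called higher among all tested genes. An adjusted p of at most 0.05 was reached by 3 of the 30, against 14.0% of all tested genes. The median log2 fold change was 0.08. The called gene was *Grk5*, a kinase that desensitizes G protein-coupled receptors (1.09, adjusted p = 0.0306), and the most abundant members, *Cdc42* and *Rhoa*, had 0.15 (adjusted p = 0.280) and 0.03 (adjusted p = 0.754). Of 10 tested genes for the shedding, cleavage and presentation of chemokines, 1 was called higher and 0 lower, with a median of 0.11. It was *Hs3st1*, a heparan sulfate sulfotransferase (1.56, adjusted p = 0.0375). *Adam10* and *Adam17*, the sheddases of CX3CL1 and CXCL16, had log2 fold changes of 0.20 (adjusted p = 0.139) and -0.01 (adjusted p = 0.931). The abundant syndecans *Sdc1* and *Sdc4* had -0.12 (adjusted p = 0.231) and 0.19 (adjusted p = 0.169). Of 5 tested genes among other leukocyte-recruiting genes, 0 were called, with a median of 0.70. *S100a9*, a neutrophil attractant also made by stressed epithelia, was not tested. It had 0.64, 0.89 and 0.89 TPM in the control samples and 373, 1.57 and 7.02 TPM in the Ptch1-ablated samples. Its partner *S100a8* had 0 TPM in every control sample and 78.8, 0.31 and 0.94 TPM in Ptch1-ablated replicates 1, 2 and 3, so both stood out in the same sample as *Ppbp*.

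Markers of other cell types were read beside these values. The pan-leukocyte genes *Ptprc*, *Itgb2*, *Coro1a* and *Laptm5* summed to 27, 26 and 27 counts in control replicates 1, 2 and 3 and 55, 22 and 41 in Ptch1-ablated replicates 1, 2 and 3, with *Ptprc* at 9 counts or fewer everywhere. The sums overlapped between groups, while *Itgb2*, the beta-2 integrin of leukocytes, had 1, 2 and 0 counts in the control samples and 7, 3 and 5 in the Ptch1-ablated samples. Of the 7 neutrophil markers in the table, 5 were below 10 counts in all samples. The sums were 7.96, 7.37 and 7.41 TPM in the control samples and 6.95, 3.54 and 7.62 TPM in the Ptch1-ablated samples, mostly *Ly6g* (log2 fold change -0.40, adjusted p = 0.393). The counts of *Ly6g* were not whole in any sample, since RSEM divided reads between genes, so its values and this sum are uncertain. The platelet and megakaryocyte markers, of which 6 were in the table, summed to 30.7, 33.4 and 31.2 TPM in the control samples and 34.5, 37.5 and 33.9 TPM in the Ptch1-ablated samples, which were all higher. Most of this was *Gp1bb* (log2 fold change 0.23, adjusted p = 0.129). The counts of *Gp1bb* were also not whole in any sample, so its values and the platelet sum are uncertain. *Itga2b*, a subunit of the platelet fibrinogen receptor, had 169, 169 and 181 counts in the control samples and 165, 163 and 167 in the Ptch1-ablated samples. *Gp5*, a platelet glycoprotein, had 0, 0 and 2 counts in the control samples and 11, 1 and 3 in the Ptch1-ablated samples, and *Gp6* and *Itgb3* were at most at 6.97 and 2.51 counts. The part of platelet RNA in the values of *Ppbp* was not tested beyond these markers.

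Macrophage markers summed to 48.7 to 54.8 TPM in control samples and 51.2 to 68.5 TPM in Ptch1-ablated samples, mostly from *Cd68* (log2 fold change 0.27, adjusted p = 0.213). The complement genes of that list had values in the other direction. *C1qa* and *C1qb* had log2 fold changes of -0.79 (adjusted p = 0.256) and -0.46 (adjusted p = 0.400), and *C1qc*, which was not tested, had 15, 13 and 10 counts in the control samples and 7, 6 and 8 in the Ptch1-ablated samples. Over the 3 tested macrophage markers the median log2 fold change was -0.46, and 0 were called. Markers of dendritic and Langerhans cells summed to 13.9 to 23.4 TPM in control samples and 7.78 to 24.0 TPM in Ptch1-ablated samples, led by *Cd74* (log2 fold change -0.45, adjusted p = 0.464). *Itgax*, an integrin of dendritic cells and macrophages, had 7.48, 5 and 5 counts in the control samples and 17, 9 and 10 in the Ptch1-ablated samples and was not tested. The part of these leukocytes in the values of *Ppbp*, *Ccl6* and *Cxcr6* was not tested. T and NK cells (led by *Lck*), B cells (*Cd79b*), mast cells (*Cpa3*) and blood endothelium (*Vwf*) each summed to at most 3.58 TPM in any sample. Markers of red blood cells (*Alas2*) and melanocytes (*Pmel*) summed to at most 10.9 and 10.1 TPM, and none of their tested genes was called. The lymphatic endothelium list was at 69.4 to 80.3 TPM in control samples and 89.0 to 122 TPM in Ptch1-ablated samples, nearly all from *Pdpn* (log2 fold change 0.50, adjusted p = 0.0618), which basal epithelial cells also express. Markers of conjunctiva and goblet cells, led by *Krt13*, summed to 1384, 1838 and 2309 TPM in the control samples and 4667, 2174 and 2887 TPM in the Ptch1-ablated samples, highest in the sample with the most *Ppbp*. Of the 3 tested, 0 were called, with a median log2 fold change of 1.46. *Krt4* had 1.80 (adjusted p = 0.0685), *Krt19* 1.46 (adjusted p = 0.0793) and *Krt13* 0.68 (adjusted p = 0.107). Of the 6 corneal epithelial markers, 1 was called, *Krt14*, a basal keratin (log2 fold change 2.81, adjusted p = 0.00769). Of 13 immediate early genes, transcribed soon after cell stress or tissue handling, 10 were called higher and 0 lower, against 2.34% and 0.892% of all tested genes, with a median log2 fold change of 2.43. They summed to 1059 to 1350 TPM in control samples and 2697 to 3114 TPM in Ptch1-ablated samples. This list too was chosen with earlier results of these data known, so its share of calls is not a test. The part of conjunctival cells and of the early response in the chemokine values was not tested.

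**Figure D5:**
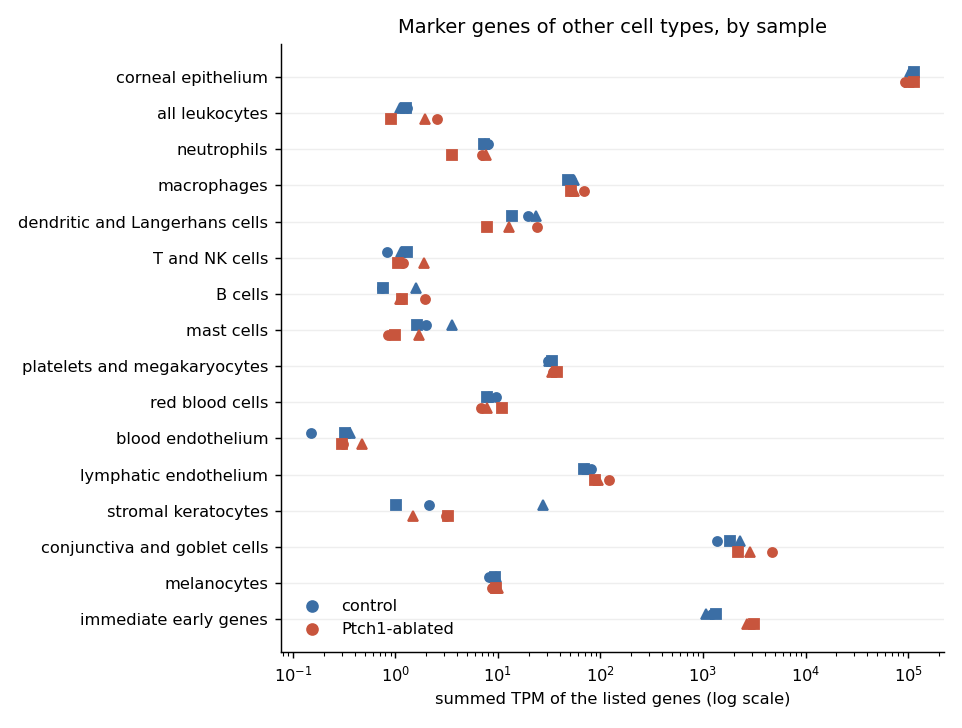
Summed TPM (horizontal axis, log scale) of marker lists of corneal epithelium and other cell types and of immediate early genes in each sample, with control samples in blue, Ptch1-ablated samples in red, and circles, squares and triangles for replicates 1, 2 and 3. The sums of immediate early genes, platelet markers and lymphatic markers are higher in all Ptch1-ablated than in all control samples. The stromal sum is high in 1 control sample (27.2 TPM, of which *Col1a2* gives 26.0). The sums of leukocyte and neutrophil markers overlap between groups. Most of the platelet and neutrophil sums is *Gp1bb* and *Ly6g*, whose counts are not whole in any sample and are uncertain.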

How the data were processed

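The authors mapped clean reads with Bowtie2 and estimated gene abundance with RSEM. For each sample the deposited values are RSEM's expected counts, not scaled for depth, and TPM, scaled for gene length and depth. The submitters' processing notes name Bowtie2 2.2.5, RSEM 1.2.12 and mm9. The labels name an Illumina TruSeq kit, while the study's methods describe rRNA depletion and sequencing of DNA nanoballs. Of the values above 0, 39.4% were not whole to within 0.005, because RSEM divides reads between genes, and expected counts were rounded for testing.

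Genes that passed filterByExpr were tested with edgeR 4.0.16 (quasi-likelihood, TMM) in R 4.3.3. Each standard error (SE) is the size of the log2 fold change over the root of the F statistic. Normalized counts are counts on the TMM-scaled library size times the mean scaled size. In each sample 3 counts, the floor for counting error only, corresponded to 0.142 to 0.152 CPM on those sizes. Alternatives were DESeq2 1.42.0, limma-voom (limma 3.58.1), other size factors and filters, a replicate block, each sample left out, and limma on log2(TPM + 1) or log2(TPM + 0.1) (mean TPM 1 or higher). The script was tested on simulated data. Columns of other samples numbered 0.

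Members and lists were chosen with earlier results of these data known. Values in every sample are given for members with an adjusted p of at most 0.05, the 2 members of each role with the highest mean TPM in control samples, members at 3 counts or fewer in all samples of a group and 10 or more in all of the other, and receptors of the first kind of ligand. Of the other lists the called genes and the most abundant are named. The remaining detected members, *Ccl2*, *Cxcr4*, other members below 10 counts, *Adam10*, *Adam17*, *Tnf*, neighbours and single platelet, leukocyte, stromal and conjunctival markers were added after their values were seen. Gene order is from RefSeq. A further marker list is not reported here.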

Additional observations from a re-analysis of the deposited data

How the results depend on the processing

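Of the 13 tested members, 11 kept their direction under every alternative run, and *Ccl9* and *Cxcl14* did not. The log2 fold change of *Ccl9* was -0.0028 with upper-quartile size factors and -0.28 to 0.32 with a sample left out (-0.28 without control replicate 3, -0.061 and -0.035 without Ptch1-ablated replicates 2 and 3). That of *Cxcl14* was -0.37 to 0.06 with a sample left out (0.061 without Ptch1-ablated replicate 3). The number of members called higher was 1 with limma-voom and 1 with at least 10 counts in every sample, where *Ppbp* was lost or not tested, and 0 to 3 with a sample left out (3 without Ptch1-ablated replicate 2, with *Ccl6* added). *Ccl6* then passed the filter through its Ptch1-ablated samples alone, and nothing is drawn from its call. The number called higher was 0 without control replicate 2, where only 59 genes in all were called against 420, and 1 without control replicate 1 or 3. Without a minimum fold change 1 member, *Cx3cl1*, was called lower. Detection at 1 or more counts in any sample gave all 47 members, so that limit separated none of them. *Cx3cl1* was no longer at an adjusted p of 0.05 or less under 9 of 15 alternatives (log2 fold change -0.75 to -0.43), *Ppbp* under 4 of 14 and *Cxcl16* under 1 of 15 (1.21 to 1.65). *Ccl28* passed under 2 of 13, with an adjusted p of 0.0378 at the lowest. The causes were not tested. With the replicate block 3 members were called higher, *Cxcl1* (adjusted p = 0.0185) with *Ppbp* and *Cxcl16*, 0 lower, and *Cx3cl1* had an adjusted p of 0.0600. Samples with the same number did not deviate together throughout (correlations of 0.105, -0.014 and 0.019), so they share only a number. Counts below 10 limit most receptors and CC ligands.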
